A study of Mus musculus with 4 samples.

Results

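Levels of 10 genes of interleukin-1 and interleukin-6 type signalling, of the 28693 genes in the files, were followed by cell class in mouse mammary glands. Glands with induced deletion of Lats1 and Lats2, aimed at luminal cells, were set against glands without it. The 10 genes were chosen by symbol, and all 10 symbols were listed once: the ligands Il1a, Il1b, Il33, Il18, Il6, Lif and Tnf, the secreted antagonist Il1rn, and the receptors Il1r1 and Osmr. Single live cells of 4 adult nulliparous females were profiled, 1 mouse per library, by droplet 3' RNA sequencing with unique molecular identifiers (UMIs). Both CTL mice (labelled WT) carried Lats1f/f, Lats2f/f and a heterozygous R26-lsl-EYFP reporter without Cre. LATS1/2-KO replicate 1 carried the same alleles with Krt8-CreERT2, and LATS1/2-KO replicate 2 carried them with Krt8-CreERT2 and a homozygous R26-lsl-EYFP reporter. All 4 mice received 2 mg of tamoxifen on 5 days and were collected 7 days after the last dose. Krt8 drives Cre in luminal cells, so basal, stromal and immune cells of LATS1/2-KO glands are not the intended target. Replicate numbers name different mice.

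The interleukin-1 family is made up of ligands that act on paired receptor chains and pass the signal to NF-kB through MyD88. IL-1α and IL-1β share the receptor IL1R1, which IL-1RA, the product of Il1rn, occupies without signalling, and the decoy receptor IL1R2 binds the ligands without passing a signal. IL-33 and IL-18 use receptors of their own (IL1RL1 and IL18R1), and IL-1β and IL-18 need cleavage by an inflammasome before they act. Ligands of the interleukin-6 type, such as IL-6, LIF and oncostatin M, share the chain gp130 (Il6st) and signal through JAK kinases to STAT3. LIF pairs gp130 with LIFR, and OSMR is the second chain for oncostatin M. TNF is another upstream signal to NF-kB. In the mammary gland, LIF and STAT3 are known for their part in the involution after lactation.

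The genes lie apart from each other, except that Il1a, Il1b and Il1rn are all on chromosome 2 (GRCm38). Lif, on chromosome 11 from 4257557 to 4272514, Il33, on chromosome 19 from 29925114 to 29960718, and Tnf, on chromosome 17 from 35199381 to 35202007, are the ligand genes that were lower in luminal ER- cells of LATS1/2-KO, so the 250 bases before each start site are shown (RefSeq, GRCm38.p6, 5' to 3' along the gene). Capitals mark matches to GGAATG or CATTCC (the TEAD motif) and to TGANTCA (the AP-1 motif), searched on both strands.
Lif, chr11:4257318-4257567, plus strand: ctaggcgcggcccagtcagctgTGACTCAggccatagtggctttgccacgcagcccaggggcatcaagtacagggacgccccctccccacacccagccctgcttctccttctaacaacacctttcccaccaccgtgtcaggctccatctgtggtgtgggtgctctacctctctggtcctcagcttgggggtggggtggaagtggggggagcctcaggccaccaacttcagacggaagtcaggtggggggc
Il33 start 1, chr19:29924863-29925112, plus strand: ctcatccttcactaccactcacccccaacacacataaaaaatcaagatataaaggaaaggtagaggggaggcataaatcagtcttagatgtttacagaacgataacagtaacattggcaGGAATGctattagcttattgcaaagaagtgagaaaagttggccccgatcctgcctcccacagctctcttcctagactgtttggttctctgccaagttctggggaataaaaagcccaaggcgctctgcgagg
Il33 start 2, chr19:29945540-29945789, plus strand: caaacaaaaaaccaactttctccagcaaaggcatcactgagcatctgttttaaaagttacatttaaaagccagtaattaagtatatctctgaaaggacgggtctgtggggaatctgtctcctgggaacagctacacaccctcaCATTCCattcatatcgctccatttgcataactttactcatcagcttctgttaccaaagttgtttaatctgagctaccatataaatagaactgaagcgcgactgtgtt
Tnf, chr17:35202008-35202257, minus strand: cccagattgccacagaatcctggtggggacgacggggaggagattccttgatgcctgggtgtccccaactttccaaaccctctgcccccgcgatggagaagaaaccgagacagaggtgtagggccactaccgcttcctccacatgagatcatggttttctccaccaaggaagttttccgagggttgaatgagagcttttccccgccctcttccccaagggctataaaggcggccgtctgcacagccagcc

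The first base of the AP-1 match in Lif lies 228 bases before its start, and the TEAD matches of Il33 begin 131 and 107 bases before its first and second start. Of 32817 such windows over all genes, 12.6% held the TEAD motif and 6.75% held the AP-1 motif. Neither motif, nor TTCNNNGAA (STAT, in 7.01% of windows), nor the 10-base NF-kB motif (in 1.41%), was found in the Tnf window. A match is a description of the letters, and binding was not measured here.

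Of 20324 barcodes, 18200 were kept as cells, with 38792520 to 46810771 UMIs per library and medians of 5962 to 10141 UMIs per cell. Any pair of libraries shared 4 to 17 barcodes. Each cell took its class from marker genes that include no gene of the family. The luminal ER- class held 2843 and 2063 cells in CTL and 1561 and 1699 in LATS1/2-KO, and the luminal ER+ class held 1199, 941, 426 and 133. Macrophages numbered 6 and 7 in CTL against 234 and 349 in LATS1/2-KO, and fibroblasts 61 and 28 against 330 and 959. A further 120, 52, 932 and 855 epithelial cells reached 3 markers of no lineage or tied between lineages, and are called epithelial cells of no lineage. The EYFP transcript, which appears after Cre has acted, stood at 0.379 and 0.405 CPM (UMIs per 1000000 UMIs of the class) in CTL luminal ER- cells and at 63.5 and 79.0 CPM in LATS1/2-KO. EYFP UMIs were seen in 16.4% and 19.7% of LATS1/2-KO luminal ER- cells. The place of the deleted exons relative to the 3' tags of Lats1 and Lats2 was not given in the sources used here, so their levels are no check of the deletion. Lats1 read 25.9, 25.7, 16.4 and 19.3 CPM, and Lats2 15.2, 17.1, 27.1 and 30.7 CPM, in luminal ER- cells of CTL replicates 1 and 2 and LATS1/2-KO replicates 1 and 2, with log2 fold changes of -0.87 and 0.50 (edgeR, adjusted p = 7.5e-04 and 0.0091). Values for 4 libraries are given in this order throughout.

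**Figure D1:**
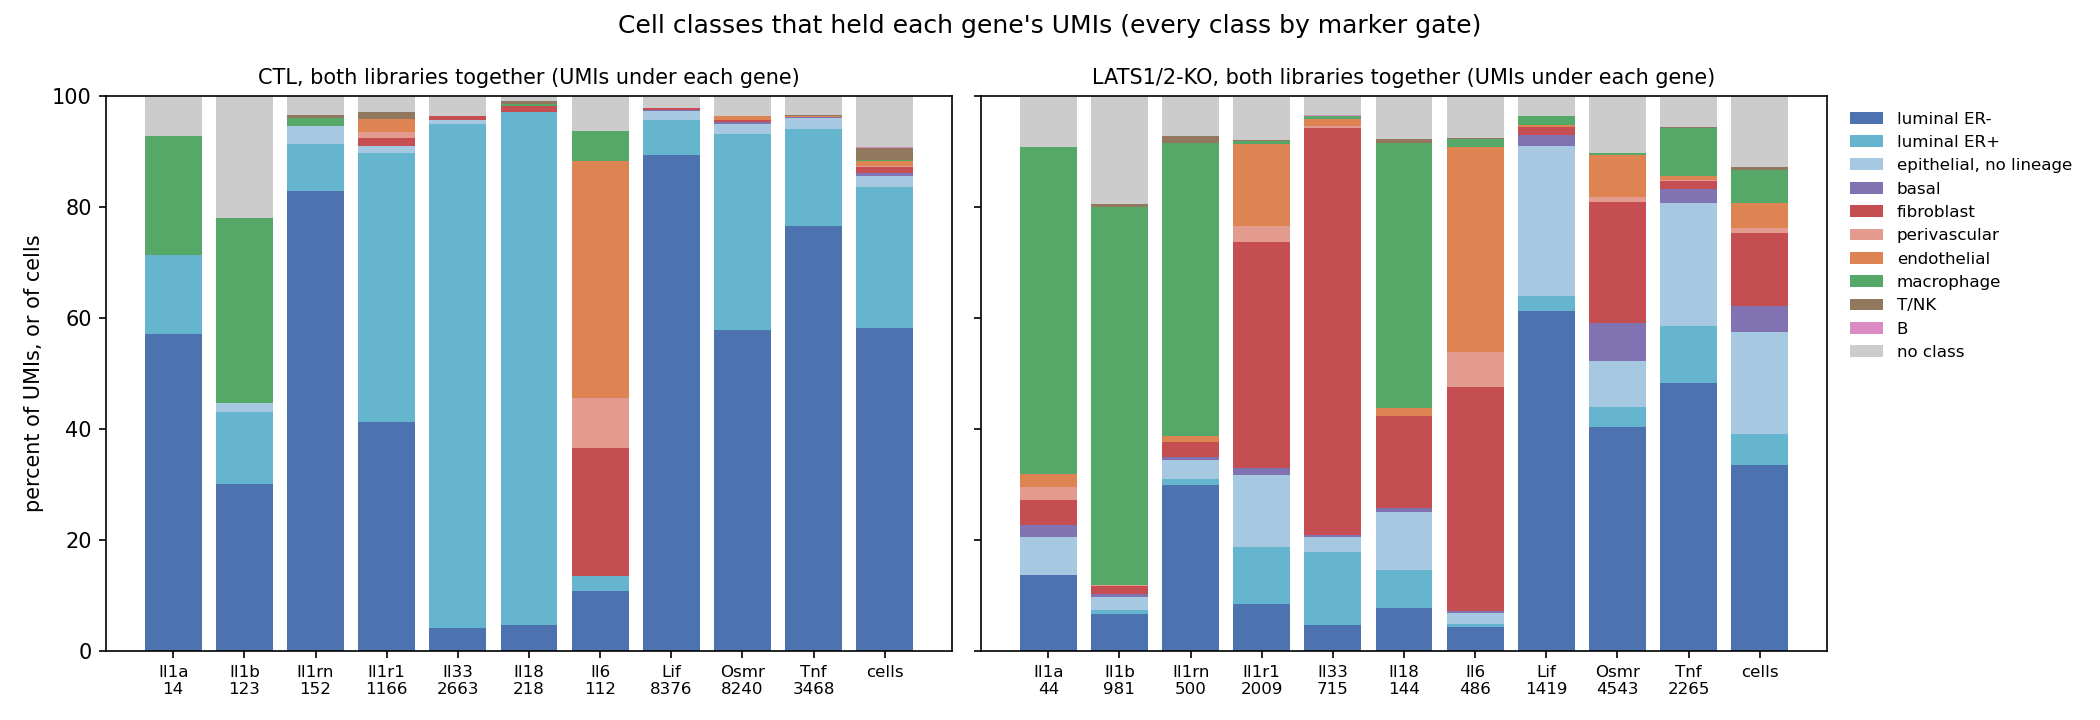
Stacked bars give the percent of all UMIs of each gene (its number of UMIs stands under its name) that fell in each cell class, in CTL and in LATS1/2-KO with both libraries of a condition together, with the percent of cells at the right; every class here comes from the marker gate, basal and T/NK cells included. In CTL the bar of Lif is 89.5% luminal ER- and that of Il33 91.1% luminal ER+, while in LATS1/2-KO 73.6% of Il33 is in fibroblasts and 68.2% of Il1b in macrophages.

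The genes differed in the cells that held their transcripts. Lif, Tnf and Osmr were mostly luminal in CTL: luminal ER- cells held 89.5% of the 8376 Lif UMIs in CTL and 61.3% of the 1419 in LATS1/2-KO, where epithelial cells of no lineage held another 27.0%. Il33 and Il18 were luminal ER+ genes in CTL, with 91.1% of 2663 and 92.7% of 218 UMIs there. In LATS1/2-KO, fibroblasts held 73.6% of the 715 Il33 UMIs and macrophages held 47.9% of the 144 Il18 UMIs. Il1a, Il1b and Il1rn had most of their LATS1/2-KO UMIs in macrophages, with 68.2% of 981 for Il1b and 52.8% of 500 for Il1rn, and fibroblasts and endothelial cells together held most of Il6 there. For Il1r1, fibroblasts held 22.3% and endothelial cells 18.8% in LATS1/2-KO replicate 1, against 53.2% and 12% in replicate 2, and the fibroblast share of Il33 was 49.8% and 83.9% in these mice. The cells changed as well: fibroblasts made up 1.06% of CTL and 13.2% of LATS1/2-KO cells, and macrophages 0.154% and 5.97%. Over whole libraries, Il1b read 1.58, 1.15, 13.1 and 10.5 CPM and Lif 105, 81.0, 17.1 and 16.9 CPM, values that mix the number of cells with the level per class.

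**Figure D2:**
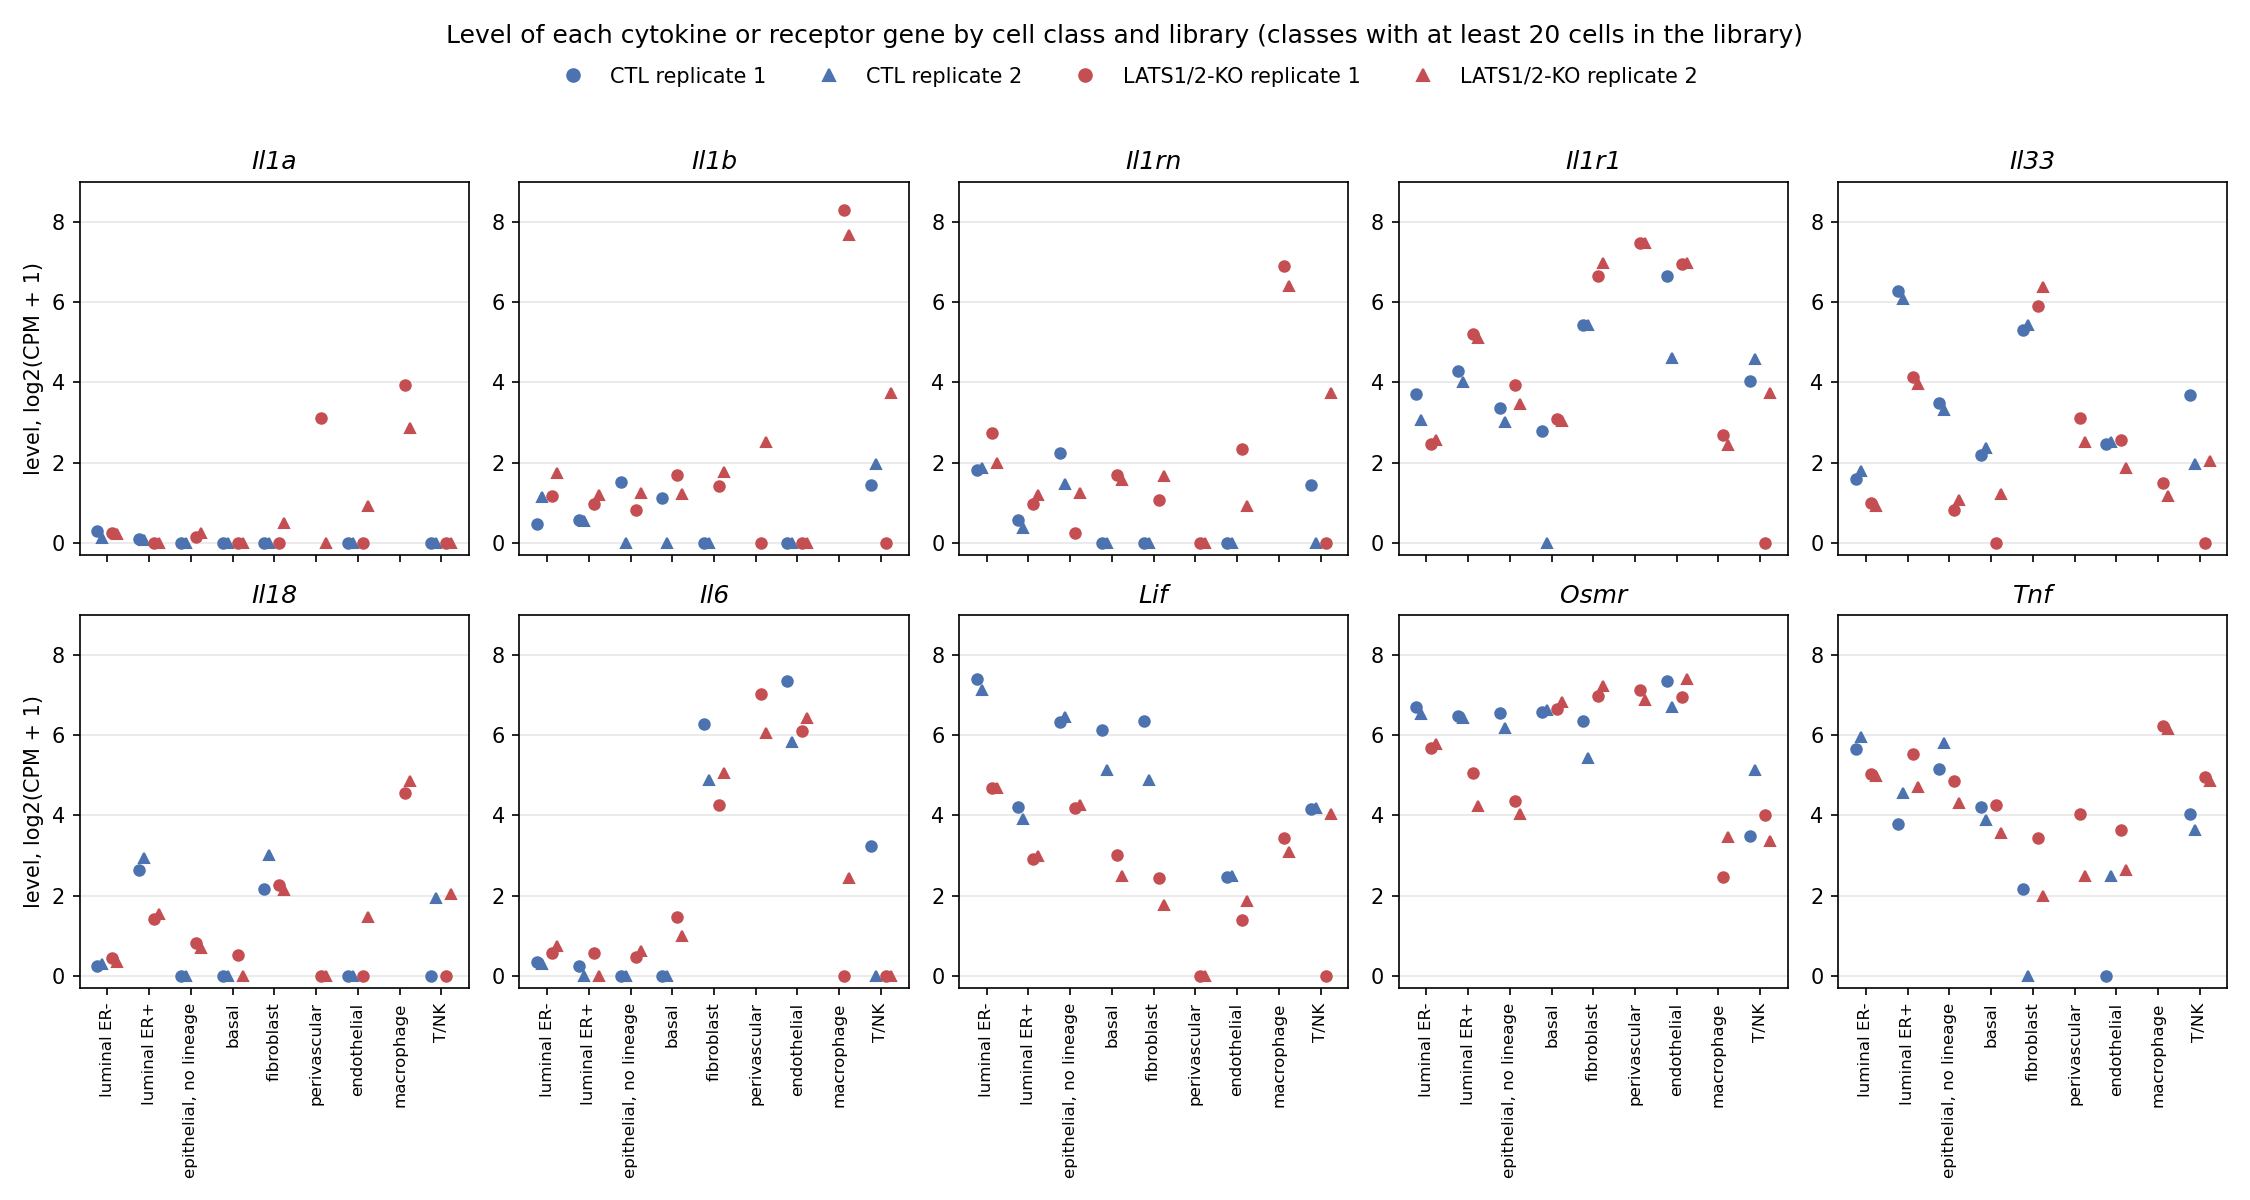
Each panel shows 1 gene, with cell classes along the horizontal axis and the level as log2(CPM + 1) on the vertical axis; each point is 1 library (blue CTL, red LATS1/2-KO; circles replicate 1, triangles replicate 2), shown where the library held at least 20 cells of the class. Basal and T/NK cells are taken from clusters here. The 2 LATS1/2-KO points of Lif in luminal ER- cells, at 24.7 and 24.6 CPM, lie below both CTL points, at 167 and 139 CPM, and Il1b stands highest in LATS1/2-KO macrophages.

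Of the 8 genes of the family tested in luminal ER- cells, Lif fell the most. Its level there was 167, 139, 24.7 and 24.6 CPM, so both LATS1/2-KO libraries lay far below both CTL libraries. The log2 fold change was -2.98 ± 0.13 (SE), a 7.87-fold lower level (edgeR quasi-likelihood, adjusted p = 1.2e-05). Lif UMIs were present in 42.4% of CTL replicate 1 cells (95% exact binomial interval 40.6 to 44.2) and 41.4% of CTL replicate 2 cells (39.3 to 43.6), against 16.0% (14.2 to 17.9) and 17.3% (15.5 to 19.2) in LATS1/2-KO. With each cell thinned to 2000 UMIs, which kept 2758, 2025, 1526 and 1665 of the cells, the shares were 19.1%, 17.3%, 4.78% and 3.96%. Endothelial cells, the comparison class for free RNA, had a Lif UMI in 2.44% and 2.86% of CTL and in 0.870% and 0.922% of LATS1/2-KO cells at median depths of 4183, 4454, 4685 and 4327 UMIs, against 7153, 8452, 8452 and 8739 UMIs for luminal ER- cells. These intervals cover counting error only. The fall was called under all 15 alternatives run, from -3.12 to -2.63. In CTL the UMIs were concentrated: the 10% of luminal ER- cells with the most Lif held 60.0% and 62.2% of it, with up to 29 and 35 UMIs in a cell.

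Tnf and Osmr fell in the same cells by smaller amounts. Tnf read 49.6, 60.7, 31.5 and 30.6 CPM (log2 fold change -1.17 ± 0.12, adjusted p = 2.8e-04), and the groups did not overlap. Osmr, the oncostatin M receptor chain, read 103, 92.0, 50 and 53.7 CPM (-1.26 ± 0.11, adjusted p = 1.1e-04), again with no overlap. Il1r1, at 12.1, 7.30, 4.56 and 4.93 CPM, fell by 1.38 ± 0.27 on the log2 scale (adjusted p = 0.0042). Il33 was near the bottom of the range in these cells, at 2.01, 2.43, 0.986 and 0.892 CPM, and its fall (-1.58 ± 0.30, adjusted p = 0.0037) was lost when classes were taken from clusters (-0.19, adjusted p = 0.72). The first 3 of these calls held under all 15 alternatives.

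The remaining genes were scarce in luminal ER- cells. Il1rn read 2.54, 2.66, 5.67 and 2.99 CPM, with both LATS1/2-KO libraries above both CTL libraries, and was not called (log2 fold change 0.39, approximate 95% interval -0.26 to 1.03, adjusted p = 0.35). Leaving out LATS1/2-KO replicate 2 made it 0.80 with adjusted p = 0.031. Il1b read 0.379, 1.22, 1.23 and 2.36 CPM, and the 27 UMIs of CTL replicate 2 came from 5 cells. Its log2 fold change of 0.88 (-0.22 to 1.97, adjusted p = 0.21) became 1.88 with adjusted p = 0.034 without CTL replicate 2, and 1.96 with adjusted p = 0.011 when cells with markers of other compartments were left out. Macrophage markers summed to 12.6, 16.0, 44.9 and 58.5 CPM in luminal ER- cells, with 7, 7, 8 and 8 of the 8 markers seen, and their part in the Il1b level was not tested. Il6 had 5 to 13 UMIs per library (0.91, 0.01 to 1.81, adjusted p = 0.13), and Il1a and Il18 were too low to test.

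Taking luminal ER- cells as a whole, 5 of the 8 tested genes of the family were lower and 0 were higher in LATS1/2-KO, with a median log2 fold change of -1.21 against 0.01 over all genes. Of all 13315 genes tested there, 57.0% were called in either direction and 27.6% were called lower, so a call by itself was common in these cells. Fold changes use TMM scaling, which sets the median gene near 0. With libraries scaled by their totals alone, the median of all genes moved to 0.35 and 74.1% of calls were higher in place of 51.6%, and the 5 falls stayed called, with Lif at -2.63 and Tnf at -0.83. Genes of the response to tissue dissociation, such as Fos and Egr1, moved with these results: the 14 genes of that list summed to 20701, 22351, 11424 and 13442 CPM in luminal ER- cells, 9 of 14 were called lower and 4 higher, and their part in the falls was not tested. CTL luminal ER- cells lay mostly in 1 cluster (2743 and 1985 cells) and LATS1/2-KO ones in 2 others, so the class holds different cell states in the 2 conditions.

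**Figure D3:**
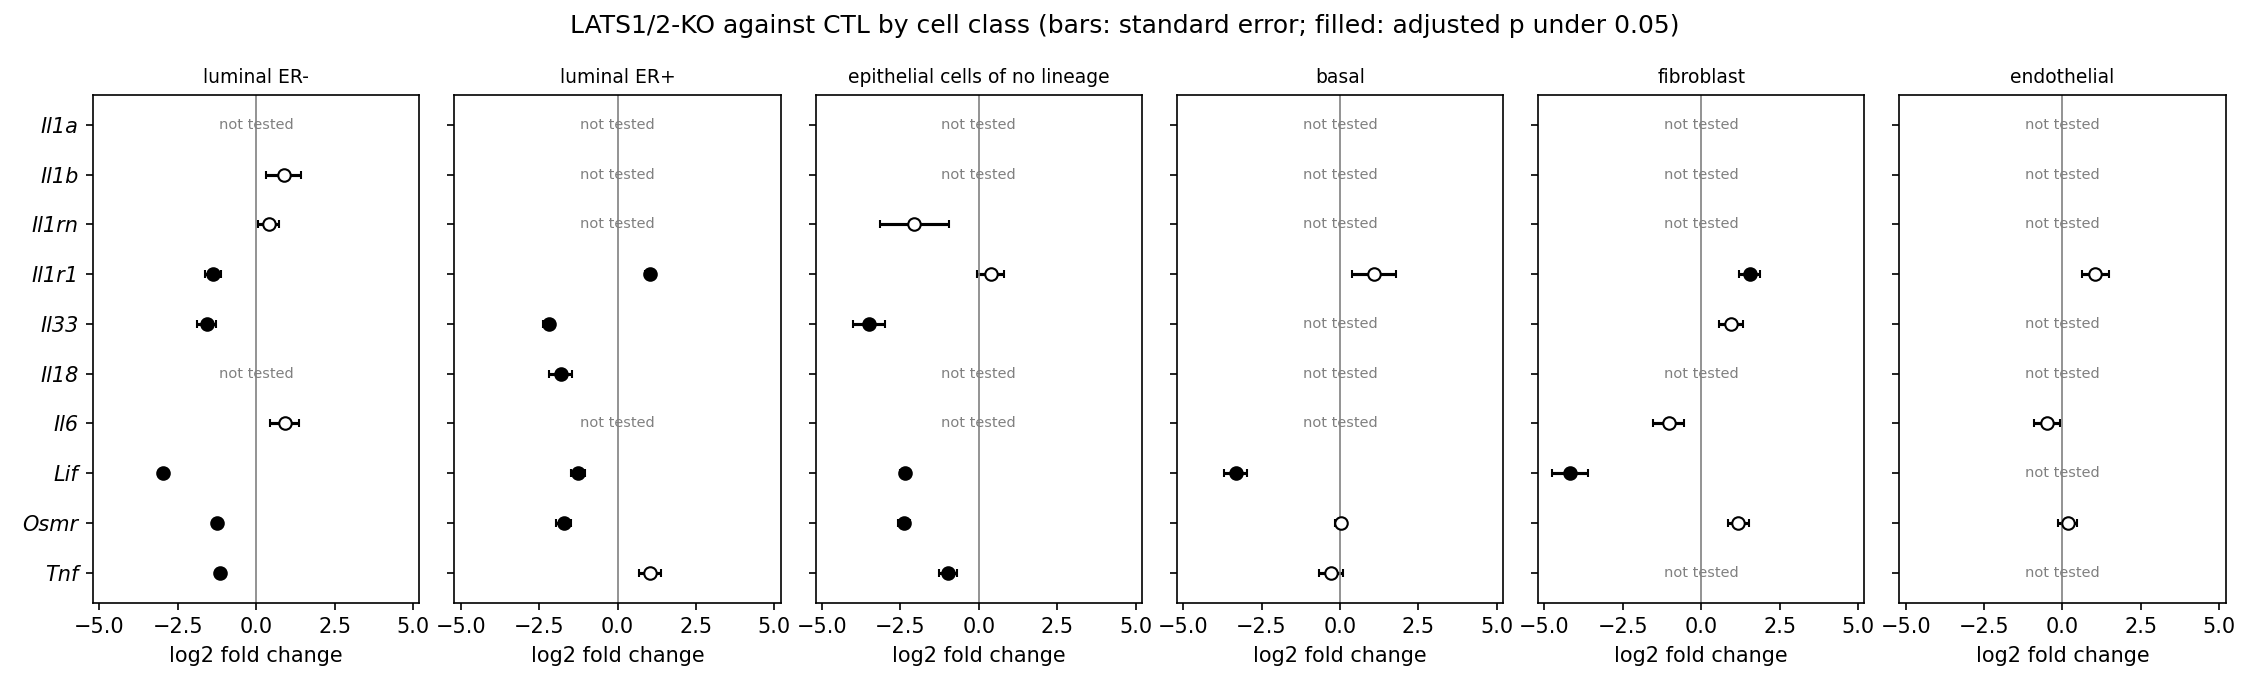
Points give the log2 fold change of LATS1/2-KO against CTL for each gene in 6 cell classes, bars the standard error, and filled points an adjusted p under 0.05; genes below the count filter are written as not tested. Lif lies left of 0 in all 5 classes where it was tested, while the filled points of Il1r1 lie left of 0 in luminal ER- cells and right of it in luminal ER+ cells and fibroblasts.

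In luminal ER+ cells, the hormone-sensing lineage, Il33 and Il18 were the genes of the family that fell together with Lif and Osmr, and Il1r1 rose. Il33, an alarmin held in the nucleus, read 77.2, 66.8, 16.7 and 14.6 CPM, a 4.61-fold fall (log2 fold change -2.20 ± 0.16, adjusted p = 5.1e-04), and the groups were far apart. It was seen in 16.8% (14.7 to 19.0) and 19.2% (16.8 to 21.9) of CTL cells and in 7.75% (5.39 to 10.7) and 9.77% (5.31 to 16.1) of LATS1/2-KO cells. Luminal ER- cells of CTL, which hold little Il33, had it in 0.985% and 0.969% of cells at median depths of 7153 and 8452 UMIs, against 12807 and 16355 UMIs in luminal ER+ cells. The 10% of CTL luminal ER+ cells with the most Il33 held 92.7% and 88.2% of its UMIs, with up to 39 and 67 in 1 cell.

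Il18 was low, and in CTL most of its UMIs lay in luminal ER+ cells. That class held 85 and 117 UMIs in CTL and 7 and 3 in LATS1/2-KO, or 5.22, 6.69, 1.65 and 1.90 CPM. The fall (log2 fold change -1.81 ± 0.37, adjusted p = 0.014) was lost under DESeq2, with cluster classes and without LATS1/2-KO replicate 1 (-1.72, adjusted p = 0.098). Osmr read 88.1, 84.8, 32.3 and 17.7 CPM (-1.72 ± 0.23, adjusted p = 0.0033). Lif, at 17.5, 14, 6.59 and 6.96 CPM, fell by 1.26 ± 0.23 on the log2 scale (adjusted p = 0.01), and the call was lost without LATS1/2-KO replicate 1 (-1.25, adjusted p = 0.082) and with sums thinned to the smallest library (-1.07, adjusted p = 0.092). Il1r1, the signalling receptor for both forms of interleukin-1, read 18.5, 15.1, 36.0 and 33.6 CPM, a 2.04-fold rise (1.03 ± 0.17, adjusted p = 0.007), and without LATS1/2-KO replicate 1 it was 0.92 with adjusted p = 0.07.

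Tnf did not pass in luminal ER+ cells. Its 4 values were 12.9, 22.6, 45.2 and 25.3 CPM, with both LATS1/2-KO libraries above both CTL libraries (log2 fold change 1.03 ± 0.34, adjusted p = 0.064); without CTL replicate 2 it was 1.48 with adjusted p = 0.0029. In all, 5 of 6 tested genes were called in luminal ER+ cells, 4 lower and 1 higher, where 31.4% of 12326 genes were called and 15.0% were called lower. Luminal ER+ markers themselves summed to 6886, 6007, 3167 and 2432 CPM in this class, and fibroblast markers to 103, 602, 754 and 491 CPM. CTL luminal ER+ cells lay mostly in a pair of clusters (978 and 706 cells in one, 214 and 195 in the other) and LATS1/2-KO ones in another (375 and 105 cells). The part of these shifts in the results was not tested.

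Whether the effect differed between lineages was tested directly. Against luminal ER+ cells, the LATS1/2-KO effect in luminal ER- cells was lower by 2.43 ± 0.24 for Il1r1 (adjusted p = 6.3e-05), by 2.27 ± 0.25 for Tnf (adjusted p = 1.3e-04) and by 1.78 ± 0.24 for Lif (adjusted p = 3.8e-04), all on the log2 scale. The effects on Il33 (0.61, adjusted p = 0.24) and Osmr (0.40, adjusted p = 0.24) did not pass, so 3 of 8 tested genes differed, where 19.6% of all 13916 genes did. With library totals alone as the scale, 79.4% of these calls were higher in luminal ER- cells in place of 41.3%, the 3 calls remained, and Osmr (0.77) and Il18 were called as well. In this contrast 11 of the 14 dissociation genes were lower and 0 higher. Their median difference was -1.02 against -0.04 over all genes, and their part in the 3 calls was not tested.

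Basal cells, the outer layer, had lower Lif in LATS1/2-KO, and Osmr was not called there. Few CTL cells passed the basal gate, so basal cells were taken from clusters (205, 164, 395 and 530 cells). Of these, 167, 140, 153 and 183 cells took no class by the marker gate, so most CTL cells here had failed it. Basal cells of CTL came from 1 cluster, with the contractile genes Cnn1, Oxtr and Myh11 among its leading genes. Those of LATS1/2-KO came nearly all from another, led by genes such as Gpx2, Krt5 and Col17a1. The class thus holds different cell states in the 2 conditions. Osmr read 94.0, 98.6, 99.0 and 112 CPM (log2 fold change 0.02, interval -0.32 to 0.36, adjusted p = 0.94), and all 4 libraries lay close together. Lif read 69.3, 34.2, 7.10 and 4.58 CPM (-3.32 ± 0.37, adjusted p = 5.6e-07), but its CTL level rested on 59 UMIs in 12 cells and 25 UMIs in 3 cells. Luminal ER- markers summed to 3205, 2348, 1193 and 908 CPM in basal cells, and their part in the Lif level was not tested. Il1r1 had 5 UMIs in CTL replicate 1, 0 in CTL replicate 2, and 17 and 22 in LATS1/2-KO (1.08, adjusted p = 0.25); without CTL replicate 1, adjusted p was 0.049, against a library at 0. Of the 4 genes tested, 1 was called, where 33.4% of 9547 genes were; with library totals alone, 60.1% of basal calls were higher in place of 50.3%.

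The difference between luminal ER- and basal cells, both taken from clusters, passed for Osmr (-0.78 ± 0.15, adjusted p = 4.2e-04) and Il1r1 (-2.32 ± 0.64, adjusted p = 0.011), 2 of 7 tested genes, where 18.4% of 12602 genes passed. A cluster with 426 and 336 of the gated luminal ER- cells of LATS1/2-KO was classed as no lineage and was not in this contrast. Without CTL replicate 2, whose basal cells held no Il1r1 UMI, the Il1r1 difference was -1.76 with adjusted p = 0.058. The difference for Lif did not pass (0.42, adjusted p = 0.44). Scaling by library totals alone changed the share of higher calls from 47.2% to 71.3% and left Osmr called, at -0.55.

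Epithelial cells of no lineage also had lower Lif, Osmr, Il33 and Tnf in LATS1/2-KO. Lif read 79.6, 87.3, 17.3 and 18.1 CPM (log2 fold change -2.34 ± 0.16, adjusted p = 4.9e-06) and Osmr 92.7, 71.2, 19.5 and 15.4 CPM (-2.39 ± 0.20, adjusted p = 2.1e-05). Il33, at 10.3, 8.90, 0.762 and 1.08 CPM, fell by 3.50 ± 0.51 on the log2 scale (adjusted p = 5.2e-04). Tnf read 34.6, 55.2, 28.0 and 18.8 CPM (-0.98 ± 0.30, adjusted p = 0.024); without CTL replicate 1 or 2, adjusted p was 0.056 or 0.19. Thus 4 of 6 tested genes were lower, where 44.6% of 11848 genes were called and 20.8% were called lower. The class differed in make-up: luminal ER- markers summed to 6286, 6188, 738 and 760.4 CPM and luminal ER+ markers to 3059, 3472, 239 and 203 CPM, so luminal markers were far higher in the CTL cells of this class than in those of LATS1/2-KO.

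Reporter-positive cells were set against reporter-negative luminal cells within each LATS1/2-KO mouse, with 316 and 373 EYFP+ cells and 1671 and 1459 cells with no EYFP UMI. Lif did not pass the test between them: it read 17.8 against 21.9 CPM in replicate 1 and 22.9 against 23.5 CPM in replicate 2 (log2 fold change -0.18, interval -0.44 to 0.07, adjusted p = 0.29). Both kinds of cell lay far below the CTL luminal cells, at 110.0 and 84.0 CPM. Cells without an EYFP UMI are not known to be unrecombined, since EYFP+ cells were deeper, with medians of 14299.5 and 15068 UMIs against 7952 and 8056. Epithelial cells of no lineage were not in this test, and EYFP UMIs were seen in 39.9% and 51.2% of them in LATS1/2-KO. With that class added, EYFP+ cells numbered 688 and 811, and Lif was again not called.

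**Figure D4:**
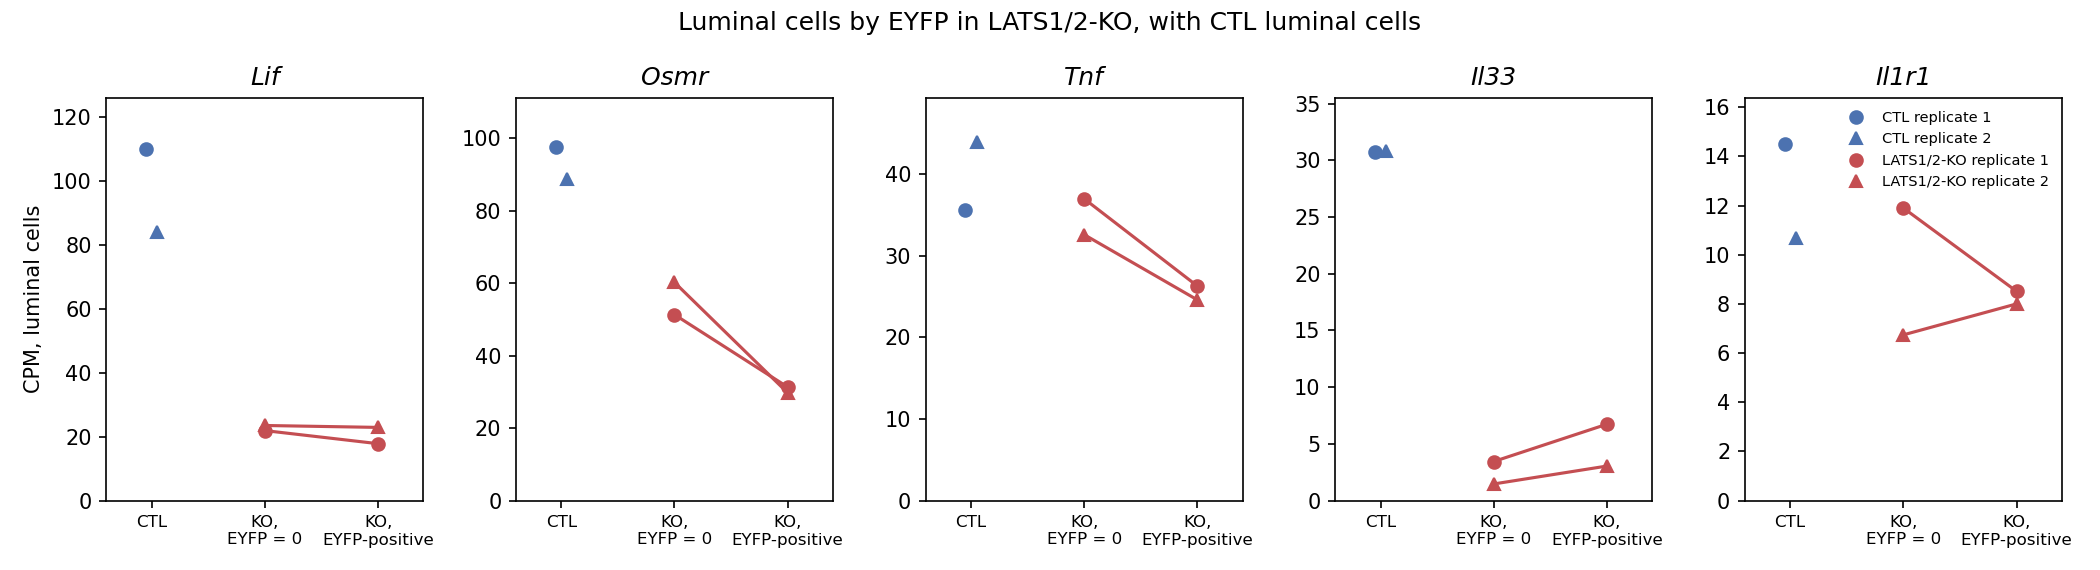
Levels in CPM (vertical axis, from 0) of 5 genes in luminal cells of CTL, and in EYFP = 0 and EYFP-positive luminal cells of LATS1/2-KO; lines join the sums of 1 mouse. Lif is level between the 2 kinds of LATS1/2-KO cell, Osmr drops from 51.3 to 31.3 and from 60.2 to 29.7 CPM, and Il33 rises in both mice while staying below CTL.

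Osmr was lower in EYFP+ cells of both mice, at 31.3 against 51.3 CPM and 29.7 against 60.2 CPM (log2 fold change -0.90 ± 0.10, adjusted p = 1.7e-18), and the CTL luminal level was 97.6 and 88.8 CPM. With cells thinned to 2000 UMIs before the split it remained lower (-1.14, adjusted p = 0.018), and with cluster classes it was -0.38 with adjusted p = 0.12. Cluster classes gave 159 and 199 EYFP+ cells in place of 316 and 373. They left out a cluster with 426 and 336 gated luminal ER- cells, which was classed as no lineage. Tnf read 26.3 against 37.0 CPM and 24.6 against 32.6 CPM (-0.48 ± 0.11, adjusted p = 1.9e-04), but this call was lost under 4 of 10 alternatives, and cluster classes turned it to 0.11. Il33 was higher in EYFP+ cells, at 6.73 against 3.44 CPM and 3.04 against 1.46 CPM (0.97 ± 0.33, adjusted p = 0.013), from 19 to 53 UMIs per sum. It was lost under 4 of 9 alternatives, among them at least 2 EYFP UMIs (adjusted p = 0.058). The test pooled both luminal lineages, and luminal ER+ cells held 94 Il33 UMIs in LATS1/2-KO against 33 in luminal ER- cells. EYFP UMIs were seen in 14.1% and 28.6% of luminal ER+ cells, against 16.4% and 19.7% of luminal ER- cells. In all, 3 of 7 tested genes were called, where 33.0% of 12463 genes were. With 2 mice the small p-values rest on a spread pooled over genes, and without the mouse as block the adjusted p of Osmr was 0.049.

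Macrophages were the main site of Il1b and of its antagonist Il1rn in LATS1/2-KO. Il1b, an inducible ligand that needs cleavage to act, read 314 and 202 CPM there, from 349 and 320 UMIs, and was seen in 33.8% (27.7 to 40.2) and 24.9% (20.5 to 29.8) of macrophages. None of the 230 and 217 endothelial cells held an Il1b UMI, which at 3 counts allows shares of cells with a UMI of up to 1.30% and 1.38%, at median depths of 4685 and 4327 UMIs against 4238 and 3952 in macrophages. Il1rn read 119 and 83.3 CPM, from 132 UMIs in each library, in 32.5% and 19.5% of macrophages. The 6 and 7 macrophages of CTL read 784 and 274 CPM for Il1b, from 29 and 12 UMIs, too few for a test. With no CTL library holding 20 macrophages, a change per macrophage could not be tested.

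Other ligands were also present in LATS1/2-KO macrophages. Tnf read 73.9 and 70.7 CPM, the highest level of any class with 20 cells, Il18 22.5 and 27.8 CPM, and Il1a 14.4 and 6.31 CPM from 16 and 10 UMIs. Osm, which encodes the ligand of OSMR, read 105 and 92.1 CPM in these macrophages and at most 15.1 CPM in the other classes, a value of 1 UMI in T/NK cells. Transcripts of Il1r2, the decoy receptor, stood at 119 and 150.2 CPM. The 10% of macrophages with the most held 66.5% and 79.7% of Il1b and 57.6% and 75.0% of Il1rn. The cluster that held most of them also had immunoglobulin genes, Igkc and Ighm, and S100a9 and Mmp9, which neutrophils express strongly, among its leading genes. Cells of no class held a further 23.1% and 15.5% of the Il1b UMIs, and the part of other myeloid cells in these levels was not tested.

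In LATS1/2-KO, Il1r1 and Il6 stood highest in stromal cells. Osmr was not confined to them, since luminal ER- cells held 40.4% of its LATS1/2-KO UMIs and fibroblasts 21.7%. Il1r1 was highest in LATS1/2-KO perivascular cells (176 and 177 CPM), followed by endothelial cells (124 and 126 CPM) and fibroblasts (99.9 and 126 CPM), and the last 2 classes overlapped. In fibroblasts it read 42.2, 42.4, 99.9 and 126 CPM (log2 fold change 1.54 ± 0.34, adjusted p = 0.042), but the CTL values came from 12 and 6 UMIs. The make-up of the class changed too: CTL fibroblasts lay nearly all in 1 cluster (57 and 25 cells), and LATS1/2-KO ones also filled another 2 (86 and 121, 97 and 97 cells). Myofibroblast-type markers summed to 1254, 1251, 10209 and 4625 CPM in fibroblasts, and their part in the results was not tested. The Il1r1 call was lost when any 1 library was left out (1.32 to 1.75, adjusted p = 0.15 to 0.29). Lif read 80.8, 28.3, 4.39 and 2.38 CPM in fibroblasts (-4.18 ± 0.57, adjusted p = 0.0097), with 23 UMIs in 3 cells and 4 UMIs in 4 cells of CTL. It was lost without CTL replicate 1 (-2.92, adjusted p = 0.33), without LATS1/2-KO replicate 1 (-4.40, adjusted p = 0.21) and without LATS1/2-KO replicate 2 (-3.62, adjusted p = 0.12). Luminal ER- markers summed to 1933, 1209, 552 and 477 CPM in fibroblasts, and their part in the Lif level was not tested.

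Il6 read 77.3, 28.3, 18.1 and 32.4 CPM in fibroblasts (log2 fold change -1.04, adjusted p = 0.28) and 164, 56.0, 67.4 and 85.3 CPM in endothelial cells (-0.49, adjusted p = 0.54), and CTL and LATS1/2-KO overlapped in both. Il33 read 38.7, 42.4, 59.3 and 83.0 CPM in fibroblasts (0.96, adjusted p = 0.19), with 11 and 6 UMIs in CTL. Osmr read 80.8, 42.4, 125 and 150.1 CPM there (1.18, adjusted p = 0.095). For each, both LATS1/2-KO libraries lay above both CTL libraries, and neither was called by edgeR. In all, 2 of 5 tested genes were called in fibroblasts, where 4.25% of 8590 genes were. In endothelial cells 0 of 3 were called by edgeR, with 1 at an unadjusted p under 0.05, where 4.88% of 7093 genes were. That gene was Il1r1, at 100.2, 23.3, 124 and 126 CPM (1.05, adjusted p = 0.22); without CTL replicate 1 it was 2.48 with adjusted p = 0.0035. None of the 10 genes passed the count filter in T/NK cells, where 0.680% of 4414 genes were called.

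Fibroblasts of LATS1/2-KO were split by marker genes, with no gene of the family among them, into inflammatory-type cells (90 and 550) and myofibroblast-type cells (174 and 212). Il33 was far higher in the former, at 154 and 118 CPM against 6.45 and 3.74 CPM, a 26.7-fold difference (log2 fold change -4.74 ± 0.28, adjusted p = 6.6e-59). Il1r1 read 172 and 162 against 67.3 and 44.8 CPM (-1.62 ± 0.18, adjusted p = 2.4e-17), again without overlap. Osmr, at 151 and 160.0 against 111 and 113 CPM, passed the test (-0.48 ± 0.17, adjusted p = 0.019) but was lost under 3 of 5 alternatives. Il6 went opposite ways in the 2 mice, at 14.4 and 37.6 against 18.4 and 19.4 CPM (-0.61, adjusted p = 0.11). In all, 3 of 4 tested genes were called, where 29.1% of 8751 genes were.

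**Figure D5:**
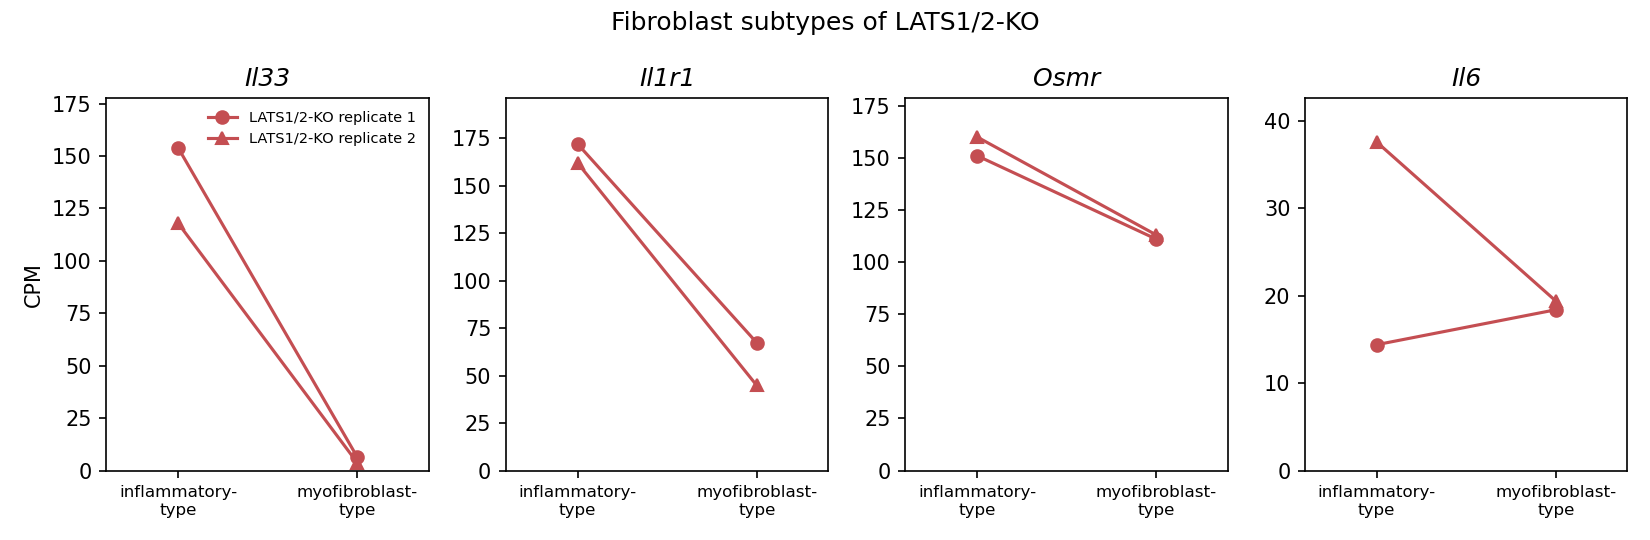
Levels in CPM (vertical axis, from 0) of 4 genes in inflammatory-type and myofibroblast-type fibroblasts of LATS1/2-KO; each line joins the sums of 1 mouse. Il33 drops from 154 and 118 CPM to 6.45 and 3.74 CPM, Il1r1 and Osmr drop less, and Il6 moves in opposite directions.

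Of the receptors that pair with the 10 genes, several were called in the epithelium. Il6st, the shared chain gp130, read 75.2, 68.2, 42.8 and 42.8 CPM in luminal ER- cells (log2 fold change -1.09 ± 0.10, adjusted p = 1.7e-04), and it fell in luminal ER+ (-0.67) and basal cells (-1.20) as well. Lifr fell in the same 3 classes, by 0.88, 0.51 and 0.91 on the log2 scale. Among classes with 20 cells, its highest CTL levels were in endothelial cells (305 and 303 CPM) and basal cells (132 and 181 CPM), whereas Lif itself was highest in luminal ER- cells. Il1rap, the partner chain of IL1R1, rose from 5.88 and 6.21 to 22.8 and 20.1 CPM in luminal ER- cells (1.49 ± 0.14, adjusted p = 1.8e-04). Il1rl1, the receptor for IL-33, read 50.2, 6.92, 0.707 and 1.90 CPM in luminal ER+ cells (-4.79 ± 1.48, adjusted p = 0.05, not called), and the 2 CTL libraries were far apart.

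In the pathway lists for luminal ER- cells, lower calls outnumbered higher ones among response genes. Of 21 tested NF-kB response genes, 11 were lower and 6 higher (median log2 fold change -0.80), among them Rel (-1.68), Nfkb1 (-1.66) and Birc3 (-2.10), which encode NF-kB subunits and an inhibitor of apoptosis. Of 11 tested STAT3 response genes, 7 were lower and 1 higher (median -1.07). Socs3, a feedback inhibitor of STAT3 signalling, read 57.5, 64.1, 26.4 and 32.8 CPM (-1.38 ± 0.13), while Lbp, an acute-phase protein, rose from 12.5 and 16.9 to 81.8 and 114 CPM. Of 21 signal transduction genes 5 were lower and 2 higher (median -0.21), of 6 tested inflammasome genes 3 were lower and 2 higher, of 12 receptors 4 each way, and of 6 further ligands and decoys 2 each way. These counts stand beside 57.0% of all genes called and 27.6% called lower in these cells, and the signal transduction genes called fell below that share. In the dissociation list, Btg2 (-1.96) and Jund (-1.99) had the lowest adjusted p-values.

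Luminal ER+ cells, where 31.4% of genes were called, had 7 NF-kB response genes lower and 6 higher of 20 tested, with Birc3 at -2.48, and 5 STAT3 response genes lower and 3 higher of 11. Pycard, an inflammasome adaptor, fell by 1.59 there, and the heat shock genes Hspb1 and Hspa1a rose by 2.09 and 2.30. Hspb1 and Hspa1a belong to the dissociation list, of which 7 genes were lower and 5 higher of 14 in these cells (median -0.55). In fibroblasts, where 4.25% of genes were called, 2 of 20 NF-kB and 2 of 10 STAT3 response genes were higher and 0 lower: Saa3, an acute-phase gene, had 0 UMIs in both CTL libraries and 1178 and 6188 in LATS1/2-KO, and Il4ra rose from 17.6 and 14.1 to 79.6 and 82.2 CPM. In EYFP+ luminal cells, against 33.0% of genes called, 9 of 11 STAT3 response genes were lower and 0 higher, with Lbp at -1.22, beside 12 lower and 1 higher of the 14 dissociation genes. Basal cells had Socs3 at -2.04, Egr1 at -2.11 and Cntfr, the receptor for ciliary neurotrophic factor, at 2.86, and in endothelial cells Lbp was at 1.34, Ier2 at -1.36 and Hspa1b at 1.79. Of the 14 dissociation genes, 8 were lower and 3 higher in basal cells, where 33.4% of genes were called. In endothelial cells, where 4.88% of genes were called, 5 of the 14 were lower and 2 higher.

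Lbp was higher in LATS1/2-KO luminal ER- (log2 fold change 2.39), luminal ER+ (2.68), basal (4.30), endothelial (1.34) and fibroblast sums (2.91), all called. Within LATS1/2-KO it was lower in EYFP+ than in EYFP = 0 luminal cells, and in myofibroblast-type than in inflammatory-type fibroblasts (-3.51), where Saa3 was also lower (-3.20). Lcn2 (-0.82) and Fosb (-0.82) followed Lbp among the genes called lower in EYFP+ cells. Between fibroblast subtypes, against 29.1% of genes called, 10 NF-kB response genes were lower and 3 higher of 20 in myofibroblast-type cells, and 7 STAT3 response genes were lower and 0 higher of 10, beside 12 lower and 0 higher of the 14 dissociation genes. In epithelial cells of no lineage, against 44.6% of genes called, 11 NF-kB response genes were lower and 4 higher of 21, and Fosb (-3.41), Egr1 (-3.08) and Fos (-2.35), all of the dissociation list, had the lowest adjusted p-values. The effect differed between luminal ER- and basal cells, both taken from clusters, for Atf3 (-2.04), Fosb (-1.74) and Icam1 (-1.80). Between luminal ER- and luminal ER+ cells it differed for Cxcl2 (-2.14), Cebpb (-1.33) and Hspa1a (-1.27). Between the luminal lineages, against 19.6% of genes called, 9 NF-kB response genes were lower and 1 higher of 21. In T/NK cells Hspa1a (3.75) and Hspa1b (2.59) were called, and Hspb1 was not (2.03, adjusted p = 0.11).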

How the data were processed

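The deposited values were raw UMI counts, which the authors obtained from the reads with Cell Ranger. The labels name version 3.1.0 and mm10, and the file headers name version 6.1.2. Barcodes needed over 500 detected genes and a mitochondrial share below 20%. A marker counted as present at 1 UMI or more and at least 0.5 times its whole-library level. A cell took the compartment with the most markers (at least 3, and 2 more than the next) and then the lineage or subtype with the most, at least 3 and no tie; 11.1% of cells took no class. Basal and T/NK cells were too few by this gate (under 20 in a library) and were taken from Leiden clusters (scanpy 1.11.5, 3000 variable genes, 20 components, resolution 0.4). No doublet caller was run; leaving out cells with markers of other compartments was the guard.

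UMIs were added up over the cells of a class in each library, and CPM are these sums per 1000000 UMIs of the class. Tests used edgeR 4.0.16 in R 4.3.3 (quasi-likelihood F test after filterByExpr and TMM; p-values adjusted by Benjamini-Hochberg over all genes tested, called at 0.05), with the mouse as block within LATS1/2-KO libraries and for differences between lineages. SE is the log2 fold change over the root of F, and intervals are a normal approximation from it. The fits were tested on simulated data with 200 changed genes. With 2 against 2 mice an exact permutation test cannot go below p = 0.33, so shares carry Clopper-Pearson intervals and no test. Cells under 2000 UMIs were left out of thinned shares.

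Alternatives were DESeq2 1.42.0, RLE or library-total scaling, no low-count filter, blocks, a 10% mitochondrial limit, other gates, thinning, cluster classes and each library left out. Library-total scaling, the epithelial cells of no lineage and the basal and T/NK cluster classes were chosen after seeing the data. The 10 genes and the pathway lists were chosen with earlier results of these data known. Beside the 10 genes, the rule named the 3 list genes with the lowest adjusted p per comparison. A list gene that this rule named is not reported here. Other list genes and the paired receptors and ligands were named after their values were seen. Sequences are from RefSeq (GRCm38.p6).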

Additional observations from a re-analysis of the deposited data

Results flagged for a closer look

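The following 5 results were singled out because the LATS1/2-KO effect differed between epithelial lineages by a test of the difference itself. Il1r1 differed between luminal ER- and luminal ER+ cells by -2.43 on the log2 scale, since it fell in the former (12.1 and 7.30 to 4.56 and 4.93 CPM) and rose in the latter (18.5 and 15.1 to 36.0 and 33.6 CPM). Against basal cells, with both classes taken from clusters, its difference was -2.32, which rested on 5 and 0 UMIs in CTL basal cells. Tnf differed between the luminal lineages by -2.27, and the separate test in luminal ER+ cells did not pass. Lif differed between them by -1.78, with a fall in both. Osmr differed between luminal ER- and basal cells, both taken from clusters, by -0.78, with basal levels of 94.0, 98.6, 99.0 and 112 CPM in the 4 libraries. The Lif, Tnf and Osmr differences named here, and that of Il1r1 between the luminal lineages, were called under all 7 alternatives run for each. These alternatives varied the scaling, the mouse block and the libraries kept, and none varied the cell classes. Between the luminal lineages, 11 of the 14 dissociation genes were also lower and 0 higher, and their part was not tested.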

How the results depend on the processing

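Of the alternatives for single genes, 662 kept their call or stayed within the replicate spread, 64 moved a value that has no test, 18 gained a call and 34 lost one. The called value that changed sign was Tnf by EYFP (0.11 with cluster classes); values that were not called, such as Il6 in fibroblasts and endothelial cells without CTL replicate 1 (0.14 and 0.51), also crossed 0. The cause of these moves was not tested.

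Sums thinned to the smallest library gave 2281 genes and 3 of the family in luminal ER+ cells (3868 and 5 as reported), 2781 and 2 in cells of no lineage (5279 and 4), 1 of the family in fibroblasts and 13 genes in T/NK cells (30). In fibroblasts 1 of the family in place of 2 was called with library-total scaling, DESeq2, the guard against other compartments' markers and cluster classes, and with no low-count filter 1028 genes were called in place of 365 (T/NK cells 137). DESeq2 gave 1497 genes in basal cells (3190), 755 between fibroblast subtypes (2547) and 998 by EYFP (4112). By EYFP, cells thinned to 2000 UMIs gave 435 genes and cluster classes 351, each, like DESeq2, with 1 of the family in place of 3. Library-total scaling gave 5 of the family between the luminal lineages in place of 3.

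The same replicate number was not taken to pair mice across conditions, and deviations of same-numbered libraries correlated at -0.015 to 0.055. With 2 libraries per condition this check was weak, and a shared batch was not tested. With the replicate number as a block, 813 genes were called in fibroblasts and 565 in endothelial cells (346). With no replicate block, 106 genes and 1 of the family were called by EYFP, 1594 genes between subtypes, 1309 genes and 1 of the family between luminal ER- and basal cells (2320 and 2), and 1711 between the luminal lineages (2734).

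Leaving out each library in turn gave 1611 to 3357 genes and 2 to 6 of the family in luminal ER+ cells, 0 to 129 genes and 0 to 1 of the family in fibroblasts, 0 to 1 of the family in endothelial cells, 1852 to 2492 genes and 1 to 2 of the family in basal cells, 0 to 66 genes in T/NK cells, 3188 to 4322 genes in cells of no lineage, 1485 to 1883 genes and 1 to 2 of the family between luminal ER- and basal cells, and 1467 to 2369 genes between the luminal lineages. The fewest calls came without LATS1/2-KO replicate 1 in luminal ER+ cells and fibroblasts. A lone library was assumed to vary like the other group. Macrophages and perivascular cells could not be tested, and thinned or guarded fibroblast sums gave no value for Lif.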

Other observations

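Levels over 32 sums of a class in a library, each with at least 20 cells, were compared between genes as a description; the sums share libraries and depth. Il1b was most like Msr1, Clec4n and Cybb (Pearson r = 0.94 each), genes of macrophages and other phagocytes, and Il1rn was most like Clec4e, Ms4a7 and Ebi3 (0.90 each). Macrophages gave 2 of the 32 sums, both of LATS1/2-KO, and Il1b and Il1rn were highest there, which weighs on their correlations. Il1a, with 53 UMIs, was most like Pilra (0.96), Wdfy4 (0.96) and Tlr6 (0.95). Il6 followed Meox2 (0.95), Hoxa7 (0.94) and Ebf1 (0.93), transcription factor genes. Lif followed Ccdc129 (0.88), Btn1a1 (0.87), a gene of milk fat globules, and Wnt5b (0.85). Il33 followed Tnxb and Gfpt2 (0.84 each) and C2 (0.80), Il1r1 followed A4galt (0.82), Cdr2l (0.81) and Gnb4 (0.80), and Osmr followed Arhgef12 (0.85), Armcx1 (0.83) and Galnt18 (0.82). Tnf was most like Prkcd (0.84), Atp5g2 (0.76) and Tkt (0.76), and Il18 like Fcgr2b (0.77), Strip2 (0.76) and Npc2 (0.75).

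Within single cells thinned to 2000 UMIs, CTL luminal ER- cells with a Lif UMI also had a Tnf UMI in 9.30% and 14% of cases, against 7.93% and 9.20% of cells without Lif. In LATS1/2-KO macrophages an Il1rn UMI was seen in 17.3% and 9.09% of cells with Il1b and in 19.6% and 13.6% of cells without it. In LATS1/2-KO fibroblasts an Il1r1 UMI was seen in 57.1% and 34.4% of cells with Il33 (8 of 14 and 32 of 93 cells) and in 17.6% and 20.5% of cells without it, over both fibroblast subtypes.

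Transcripts of the IL-18 receptor Il18r1 stood at 2.81, 2.43, 14.2 and 6.56 CPM in luminal ER- cells (log2 fold change 1.64 ± 0.38, adjusted p = 0.0084 by edgeR), and at 76.6, 55, 82.2 and 69.0 CPM in luminal ER+ cells (0.18, adjusted p = 0.5). In basal cells it had 1 and 0 UMIs in CTL and 88 and 54 in LATS1/2-KO. Il6ra, the chain that binds IL-6, was highest in LATS1/2-KO macrophages, at 82.0 and 119.9 CPM.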
